A study of Mus musculus with 6 samples.

Results

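Imprinted genes are expressed from only the maternal or only the paternal copy of a chromosome, some of them only in certain tissues. Of these genes, 38 were followed in Lin-Sca+Kit+ (LSK) bone marrow cells that lacked O-GlcNAcase. The 38 symbols were chosen as known imprinted genes of the mouse, each was looked up in the deposited table by its symbol, and the longest locus was taken for the 5 symbols that occurred more than once. All 38 were found among the 53445 loci of the table. The study collected RNA-Seq from 3 female mice whose Oga gene (listed as Mgea5), the enzyme that removes O-GlcNAc from proteins, was deleted with the blood-restricted Vav-Cre (genotype Oga(Vav-Cre), here OgaVav-Cre), and from 3 wildtype female mice. All animals had a C57BL/6 background and were about 12 weeks old, and each mouse gave 1 library from at least 20000 cells, sorted as lineage-negative, Sca-positive and Kit-positive. The Vav promoter is active throughout the blood lineages, so that the gate holds stem cells and multipotent progenitors that had lost Oga since early blood development, and the cells of a mouse were not separated further. Changes in the number of expressing cells and in RNA per cell cannot be told apart in such bulk libraries.

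Imprinted genes lie in clusters, in which differentially methylated control regions, set in the egg or sperm and kept after fertilization by factors such as ZFP57, decide which parental copy of each neighbour is silent. Many paternally expressed members promote growth and many maternally expressed ones restrain it, and several, among them H19, Igf2, Cdkn1c and the Dlk1-Meg3 cluster, are known from work on the quiescence and maintenance of blood stem cells. The reads were summed per locus with no separation of the parental copies, so that the values below are expression levels and hold no information on imprinting itself. The parental copy named for a gene is the copy listed for it, and its use in LSK cells was not measured.

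Values of single libraries are given in the order of replicates 1, 2 and 3 of each genotype. The libraries held 19318056 to 27064389 counted reads, and the gene targeted by Cre followed the labels. Wildtype libraries held 3164, 2970 and 2736 reads of Mgea5 and OgaVav-Cre libraries 104, 109 and 110 (log2 fold change -5.01 ± 0.17 SE, adjusted p = 5.88e-05). Kit, a defining marker of the gate, had at least 6884 reads in every library. Ly6a, the gene of the Sca marker, was lower and more variable. It had 4926, 2877 and 2748 reads in OgaVav-Cre libraries and 1034, 2348 and 1001 in wildtype libraries. Within each genotype the libraries also differed in several sets of marker genes. The summed level of 18 markers of long-term stem cells (LT-HSC) ran from 537 to 1205 CPM (counts scaled to the library size) in OgaVav-Cre and from 680 to 1506 CPM in wildtype, that of 12 markers of lineage-positive cells from 378 to 3018 and from 557 to 1163 CPM, and that of 8 plasma cell markers from 1740 to 12339 and from 1810 to 8118 CPM. OgaVav-Cre replicate 3 stood apart, with the lowest value of 14 of the 18 LT-HSC markers and the highest of 10 of the 12 lineage markers. The sum of 22 bone marrow stromal markers did not overlap between the genotypes, at 186 to 189 CPM in OgaVav-Cre and 121 to 168 CPM in wildtype. Of the 19 stromal markers tested, 17 were higher and 2 lower in OgaVav-Cre. The cause was not tested.

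Stretches of DNA are shown at 3 places beside imprinted genes that are described below. At 2 of these places a pair of imprinted genes start back to back on opposite strands, so that a single short interval separates their 5′ ends and both read outward from the same paternally active control region. The intervals were read from the mm9 genome on the plus strand, with every CpG, the dinucleotide that carries DNA methylation, in capitals.
Peg3 and Usp29, chr7:6683133-6683301: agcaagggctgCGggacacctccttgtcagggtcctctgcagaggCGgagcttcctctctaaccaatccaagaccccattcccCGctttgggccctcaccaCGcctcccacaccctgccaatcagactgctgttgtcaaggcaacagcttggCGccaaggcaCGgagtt
Sgce and Peg10, chr6:4697205-4697305: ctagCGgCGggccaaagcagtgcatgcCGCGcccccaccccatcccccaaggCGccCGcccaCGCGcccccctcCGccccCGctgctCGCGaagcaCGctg
Ndn, 250 bases before the 5′ end, chr7:69492913-69493162: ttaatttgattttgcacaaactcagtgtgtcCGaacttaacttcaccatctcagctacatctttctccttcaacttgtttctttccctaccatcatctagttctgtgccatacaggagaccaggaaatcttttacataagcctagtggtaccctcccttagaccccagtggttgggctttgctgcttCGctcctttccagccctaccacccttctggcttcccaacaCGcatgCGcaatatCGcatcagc
No locus of the table lay under either shared interval, while the window before Ndn lay inside AK014392, a single-exon locus annotated on the opposite strand, and also under the locus AK142799. The Sgce and Peg10 interval of 101 bases held 13 CpG at 78.2% G and C, more CpG than 87.9% of the windows of that length placed before the 5′ ends of 21686 loci. The Peg3 and Usp29 interval held 6 CpG in 169 bases, near the median of 7 for such windows, and the Ndn window 5 CpG in 250 bases against a median of 9. The letters TGCCGC, the core of the ZFP57 recognition motif, were searched on both strands and occurred 1 time in the Sgce and Peg10 interval, starting at its base 25, and in 5.21% of all windows of 101 bases. They did not occur in the other intervals, and 7.79% of windows of 169 bases and 10.4% of windows of 250 bases held them.

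LSK cells held reads of most imprinted genes, with 23 of the 38 at 1 CPM or more on average and 9 at 10 CPM or more. Per length and depth, in RPKM, which scales reads to the length of the locus and the depth of the library, the order over all 6 libraries was led by Gnas, the stimulatory G protein alpha subunit, with a mean of 18.7 RPKM. It was followed by the ubiquitin ligase Ube3a at 6.67, the translational regulator Impact at 6.57, the coatomer subunit Copg2 at 5.15, the cytoskeletal adaptor Ppp1r9a at 3.77 and the receptor Igf2r at 3.47 RPKM. Neighbours in this order often did not differ beyond their spread, and Ube3a, at 5.49 to 7.45 RPKM, overlapped Impact, at 5.51 to 9.24 RPKM. Several genes known from the fetus and placenta were lower, though not all to the same degree. Cdkn1c averaged 2.90, Grb10 2.62 and Phlda2 1.88 RPKM. H19 averaged 0.151 RPKM, Igf2 0.0802, Peg3 0.0281 and Dlk1 0.215 RPKM, and Zim1 had no read in any library, which allows at most 3 reads or 0.156 CPM in the shallowest. In all, 25 of the 38 members had more than 3 reads, taken as the floor of detection, in every library.

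**Figure D1:**
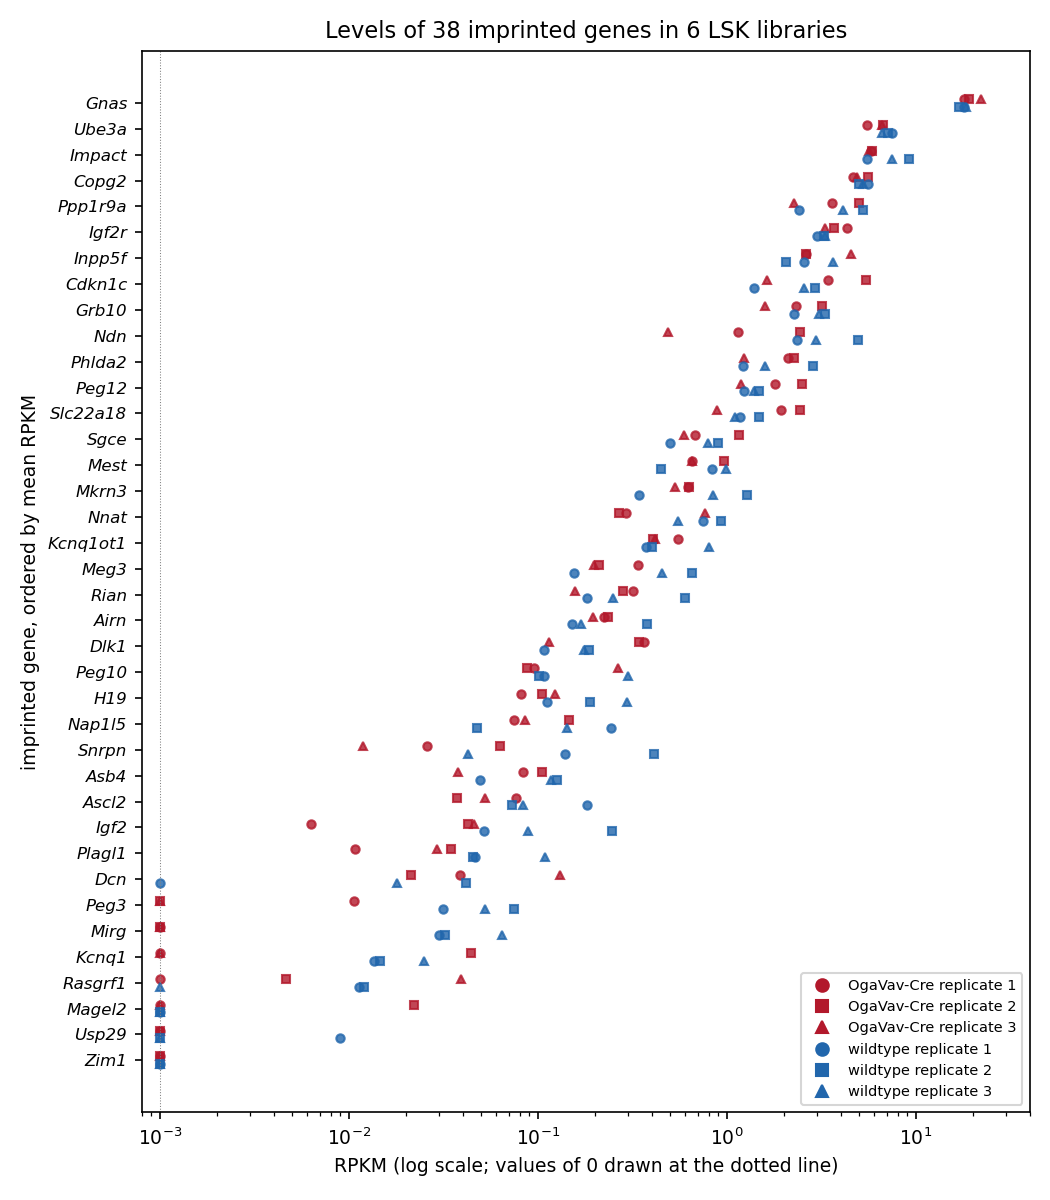
Levels of the 38 imprinted genes in RPKM on a log axis, ordered by their mean, with 1 point for each of the 3 OgaVav-Cre (red) and 3 wildtype (blue) libraries and values of 0 placed at the dotted line. Gnas leads at 17.0 to 22.1 RPKM, the libraries of the genotypes lie among each other for most genes, and Peg3 and Mirg are at 0 in some or all OgaVav-Cre libraries.

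No imprinted gene passed the test between the genotypes. Of the 38 members 26 had enough reads to be tested among 22032 loci, and 0 were called at an adjusted p below 0.05 with a log2 fold change beyond 1, where 0.0318% of all loci tested, 7 in all, were called (edgeR quasi-likelihood test, Benjamini-Hochberg adjustment over all loci tested, used for every adjusted p here). DESeq2 also called 0 of the 26 members and 0.517% of all loci. The adjusted p of the members ran from 0.412 to 0.997. At an unadjusted p below 0.05 stood 1 member, Peg3, which was lower, against 6.27% of all loci that were lower and 4.38% that were higher at that level. Peg3 and Plagl1 passed the filter on low counts, 10 reads at the median depth or 0.427 CPM in 3 libraries, only through the wildtype libraries and reached it in 0 of the OgaVav-Cre libraries, so that they had to be lower there to enter as they did, and the counts and medians over the members tested are descriptions. DESeq2 placed 2 members below that level, Peg3, for which it gave no adjusted p, and Ndn, with an adjusted p of 0.274. The share of all loci below that level in DESeq2 is not given here, so that this count has no background. The median log2 fold change of the 26 members was -0.07, with 10 values above 0 and 16 below, beside a median of 0.00 over all loci. The median was -0.04 over the 11 tested members listed as expressed from the maternal copy, 4 of them above 0. It was -0.12 over the 14 listed as expressed from the paternal copy, 5 of them above 0. Gnas, which makes transcripts of both kinds, was counted in neither. The plot of fold changes shows these values with their errors.

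**Figure D2:**
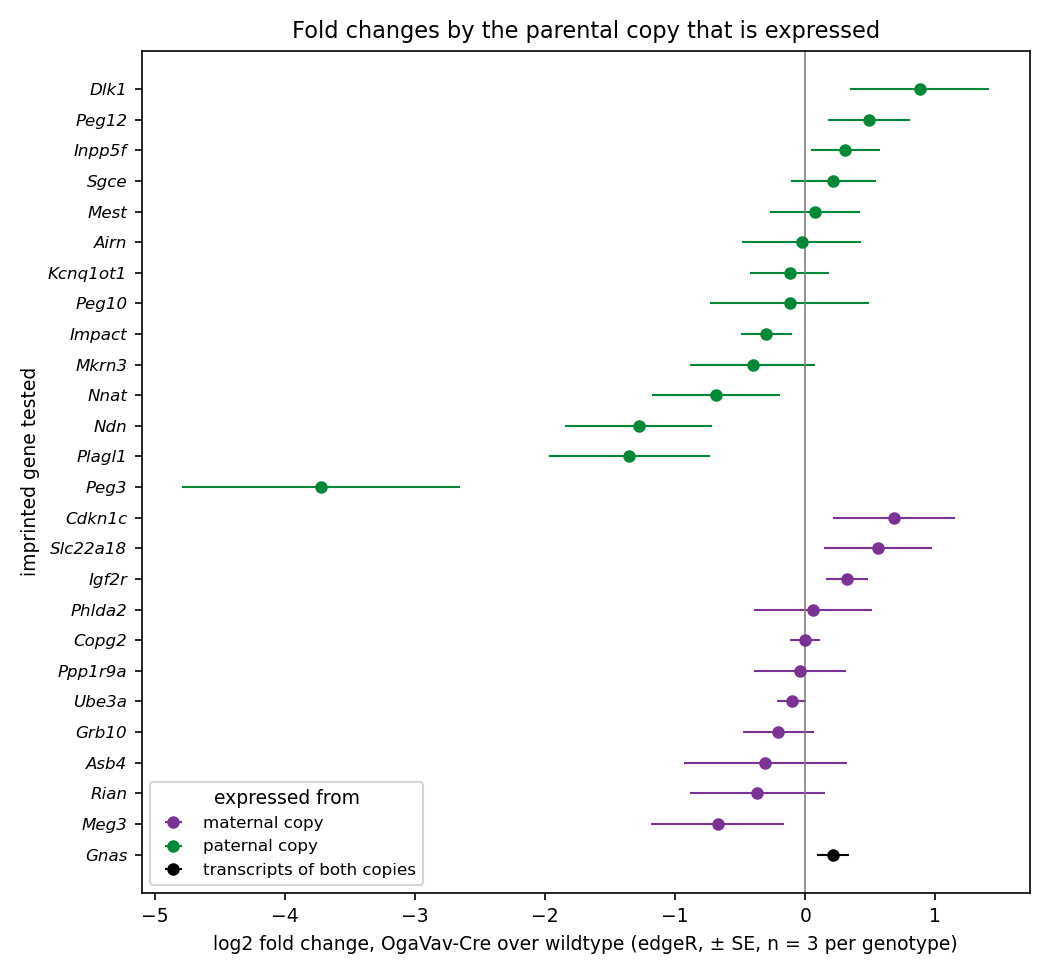
Log2 fold change of OgaVav-Cre over wildtype for the 26 imprinted genes tested, with its SE (edgeR, 3 libraries per genotype). Genes are grouped by the parental copy they are listed as expressed from, which was not measured in these cells. The 3 values beyond 1 in size, those of Peg3, Plagl1 and Ndn, are negative and did not pass the test, and Peg3 and Plagl1 entered it only through the wildtype libraries.

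The genotypes did not overlap in any library for 3 of the 26 members tested. Gnas was higher in all 3 OgaVav-Cre libraries, 1 of 26 members or 3.85% against 7.5% of all loci tested, and Peg3 and Plagl1, which entered only through wildtype, were lower, 7.69% against 9.97% of all loci. The shares among the members were thus no larger than those of the background.

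Peg3, a zinc finger protein expressed from the paternal copy, had the smallest p of the members. It entered the test only through the wildtype libraries and had to be lower in OgaVav-Cre to do so, so that its values are a description. It is encoded on the minus strand at chr7:6656603-6683132, next to the interval shown above. It had 4, 0 and 0 reads in OgaVav-Cre mice against 10, 22 and 18 reads in wildtype mice, so that the libraries did not overlap and both of the other OgaVav-Cre libraries were at 0 while replicate 1 lay just over the floor of 3 reads. The pooled rate in OgaVav-Cre was 0.0683 of that in wildtype. Its exact 95% interval of 0.0179 to 0.186 covers counting error only and not the spread between mice. The fitted log2 fold change was -3.72 ± 1.07 SE with an unadjusted p of 0.00869 in edgeR, and the adjusted p was 0.412. With OgaVav-Cre libraries at 0 this fitted value depends on the prior count, and it was -7.22 without OgaVav-Cre replicate 1, the only library of that genotype with reads. Its mean level over the 6 libraries was 0.0281 RPKM, rank 32 of the 38 members. Across its shared interval Usp29, a ubiquitin protease gene, had 2 reads in wildtype replicate 1 and none elsewhere, and the neighbour Zim1 had none.

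The Prader-Willi and Angelman cluster spanned 3125 kb of chromosome 7, chr7:66484120-69609396, and none of its genes passed the test. Ndn, a member of the MAGE family that is known to restrain proliferation and is highly expressed in blood stem cells, had 2.84, 5.54 and 1.09 CPM in OgaVav-Cre mice against 5.20, 11.4 and 6.47 CPM in wildtype mice. OgaVav-Cre replicate 2 lay above wildtype replicate 1 and the other OgaVav-Cre libraries below every wildtype library (log2 fold change -1.28 ± 0.56 SE, adjusted p = 0.478). The value was -1.97 without OgaVav-Cre replicate 2 and -0.87 without its replicate 3. Peg12, which lies 112 kb from it and encodes a FRAT family protein of Wnt signalling, had 5.94, 7.60 and 3.54 CPM in OgaVav-Cre mice against 3.61, 4.51 and 4.02 CPM in wildtype mice. Its libraries overlapped, with replicates 1 and 2 of OgaVav-Cre above all others (log2 fold change 0.49 ± 0.32 SE, adjusted p = 0.589). Mkrn3, a ring finger protein, had 2.00, 1.86 and 1.53 CPM in OgaVav-Cre mice against 0.984, 3.79 and 2.37 CPM in wildtype mice, an overlap in which wildtype held both the lowest and the highest value (log2 fold change -0.40 ± 0.48 SE, adjusted p = 0.774).

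The ratio of Ndn to Peg12 within a library, on the RPKM scale, was 0.635, 0.969 and 0.411 in the OgaVav-Cre libraries and 1.92, 3.35 and 2.14 in wildtype. The genotypes did not overlap, and the log2 ratio differed by -1.92 ± 0.43 SE. The exact two-sided permutation test gave p = 0.1, which is the smallest that 3 against 3 libraries allow, and 0.6 after adjustment over the 6 ratios of neighbours computed. These ratios were chosen after the values had been seen. Ube3a, whose loss causes Angelman syndrome, is listed as maternally expressed and varied little between the libraries. It had 78.8, 88.6 and 86.2 CPM in OgaVav-Cre mice against 95.6, 94.1 and 83.1 CPM in wildtype mice (log2 fold change -0.10 ± 0.11 SE, adjusted p = 0.752). The locus overlaps 13 others, some of them on the opposite strand, and their shared reads cannot be told apart because the library kit did not mark strand. Snrpn, a spliceosome protein gene at the imprinting center of the cluster, was not tested for want of reads, with 2, 5 and 1 in OgaVav-Cre mice against 9, 25 and 3 reads in wildtype mice, and it overlaps Snurf. Magel2 had 3 reads in OgaVav-Cre replicate 2 and none elsewhere. AK014392, which overlaps 1002 of the 1986 bases of Ndn on the opposite strand, was at 1.68, 3.84 and 0.547 CPM in OgaVav-Cre mice against 2.86, 7.11 and 3.05 CPM in wildtype mice, and reads in the shared stretch cannot be told apart.

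**Figure D3:**
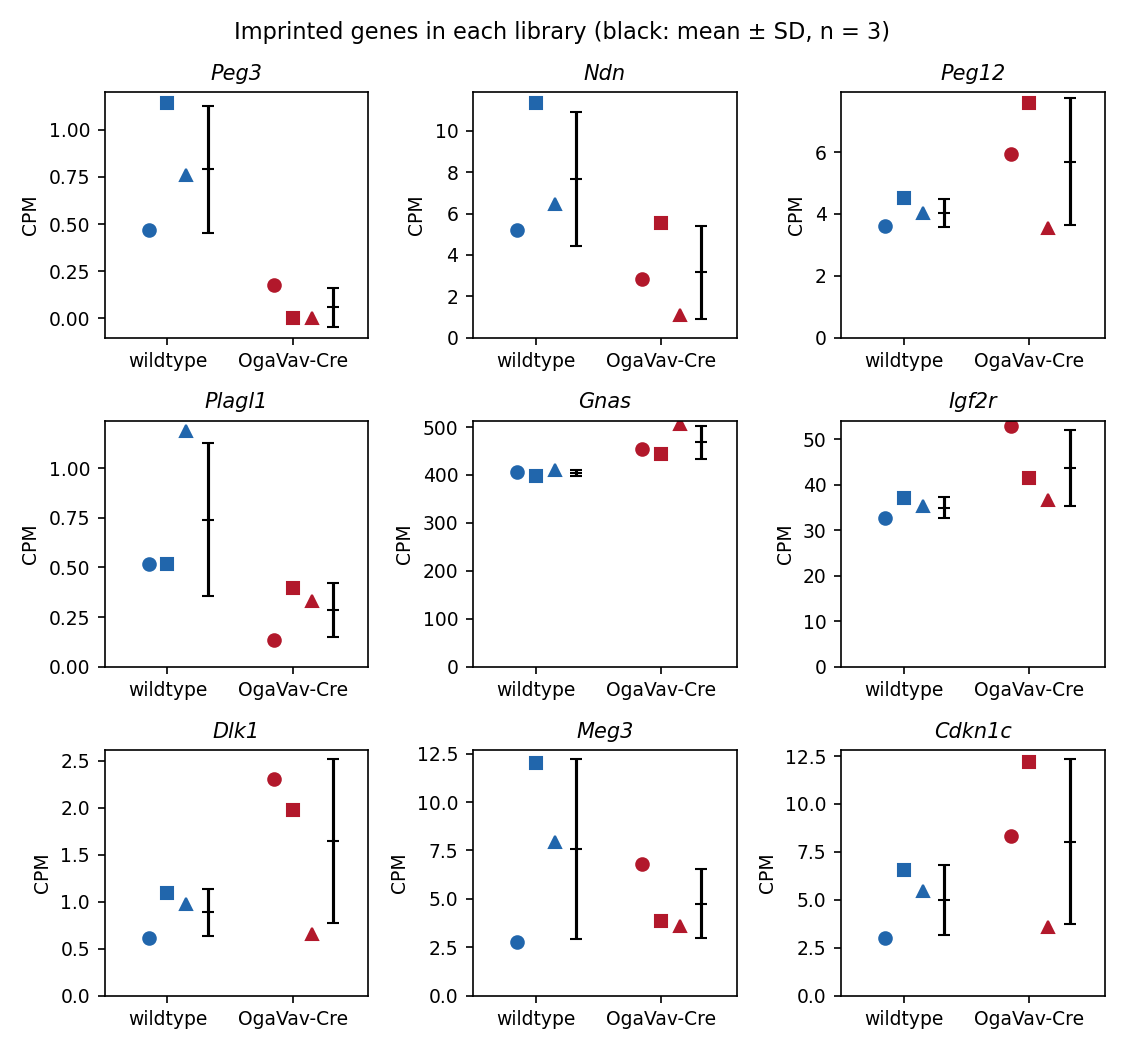
CPM of 9 imprinted genes in each library (blue wildtype, red OgaVav-Cre, symbols for replicates 1 to 3) with the mean and SD in black, each panel on its own axis from 0. Peg3 and Plagl1 lie lower and Gnas higher in all OgaVav-Cre libraries, Ndn overlaps by 1 library, and the others overlap, with replicate 3 of OgaVav-Cre lowest for Ndn, Peg12, Igf2r, Dlk1, Meg3 and Cdkn1c within its genotype.

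**Figure D4:**
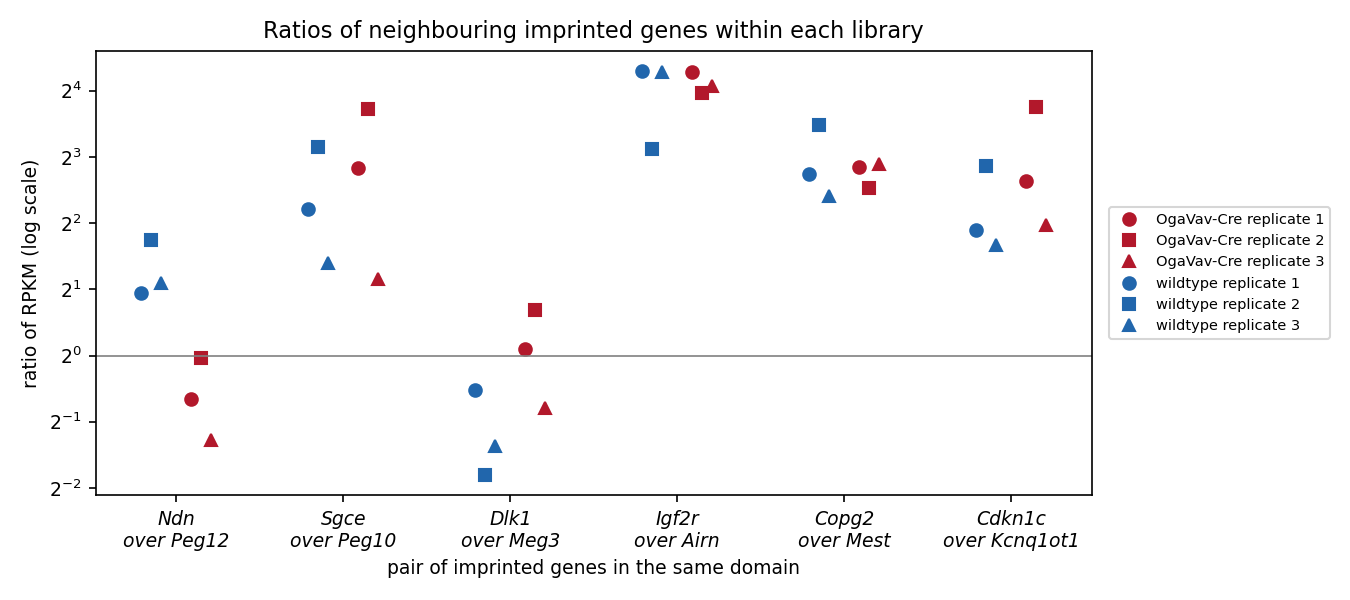
Ratio of the RPKM values of 2 imprinted genes of the same domain in each library, on a log axis, for 6 pairs. Only the Ndn to Peg12 ratio among these 6 did not overlap, at 0.411 to 0.969 in OgaVav-Cre and 1.92 to 3.35 in wildtype.

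The Dlk1-Meg3 cluster of chromosome 12, chr12:110691033-110987668, is known for maternally expressed noncoding RNAs that hold many microRNAs and for its part in long-term stem cells. Meg3, the first of these RNAs, had 6.78, 3.88 and 3.58 CPM in OgaVav-Cre mice against 2.76, 12.0 and 7.91 CPM in wildtype mice, with the widest range in wildtype (log2 fold change -0.67 ± 0.51 SE, adjusted p = 0.644). Rian, which carries small nucleolar RNAs, had 3.77, 3.09 and 1.68 CPM in OgaVav-Cre mice against 1.92, 6.54 and 2.58 CPM in wildtype mice (log2 fold change -0.37 ± 0.52 SE, adjusted p = 0.813). The libraries of the genotypes overlapped for both RNAs, and wildtype replicate 2 held the highest value of each.

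Mirg, the last and most distant of the noncoding RNAs of the cluster, was seen with 3, 3 and 7 reads in the wildtype libraries. It was not seen at all in those of OgaVav-Cre. Only wildtype replicate 3 lay over the floor of 3 reads, so that no fold is given. Mirg had too few reads for the test. The paternally expressed Dlk1, a membrane protein of the Notch ligand family, had 2.31, 1.98 and 0.657 CPM in OgaVav-Cre mice against 0.609, 1.09 and 0.973 CPM in wildtype mice, with replicates 1 and 2 of OgaVav-Cre above every wildtype library and replicate 3 among them (log2 fold change 0.88 ± 0.54 SE, adjusted p = 0.573). The ratio of Dlk1 to Meg3 on the RPKM scale was 1.07, 1.61 and 0.580 in OgaVav-Cre and 0.696, 0.286 and 0.389 in wildtype, and it overlapped in 1 library of each (exact two-sided permutation p = 0.2, adjusted p = 0.6 over 6 ratios).

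The Kcnq1 cluster, chr7:150152727-150688446, held the growth restrainer Cdkn1c, a cyclin-dependent kinase inhibitor needed for stem cell quiescence. Cdkn1c had 8.34, 12.2 and 3.58 CPM in OgaVav-Cre mice against 3.00, 6.54 and 5.46 CPM in wildtype mice. Replicates 1 and 2 of OgaVav-Cre exceeded all wildtype libraries while replicate 3 lay among them (log2 fold change 0.68 ± 0.47 SE, adjusted p = 0.608). Its neighbours are the transporter Slc22a18, with 4.43, 5.10 and 1.82 CPM in OgaVav-Cre mice against 2.39, 3.11 and 2.20 CPM in wildtype mice (log2 fold change 0.56 ± 0.41 SE, adjusted p = 0.631), and Phlda2, a limiter of placental growth, with 2.00, 1.98 and 1.06 CPM in OgaVav-Cre mice against 1.03, 2.49 and 1.31 CPM in wildtype mice (log2 fold change 0.06 ± 0.46 SE, adjusted p = 0.973). Slc22a18 showed the same 2 OgaVav-Cre libraries on top, and Phlda2 did not.

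The paternally expressed noncoding RNA that silences this cluster, Kcnq1ot1, was counted over a single exon of 83437 bases. It had 57.4, 38.9 and 39.1 CPM in OgaVav-Cre mice against 34.6, 38.7 and 73.6 CPM in wildtype mice, and the highest value was that of wildtype replicate 3 (log2 fold change -0.12 ± 0.30 SE, adjusted p = 0.905). Because of its length its mean level was only 0.491 RPKM. Within each library, Cdkn1c stood at 3.93 to 13.5 times the RPKM of Kcnq1ot1 in OgaVav-Cre and at 3.18 to 7.25 times in wildtype. Kcnq1 itself, a potassium channel, had 0 to 4 reads, and Ascl2, a placental transcription factor, 2 to 8 reads per library.

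The shared interval of Sgce and Peg10 was followed by unequal levels of its genes. Sgce, epsilon-sarcoglycan, had 8.91, 13.9 and 7.04 CPM in OgaVav-Cre mice against 5.81, 10.8 and 9.10 CPM in wildtype mice (log2 fold change 0.22 ± 0.33 SE, adjusted p = 0.828). Peg10, a gene derived from a retrotransposon and needed for the placenta, had 0.798, 0.673 and 2.01 CPM in OgaVav-Cre mice against 0.797, 0.778 and 2.20 CPM in wildtype mice (log2 fold change -0.12 ± 0.61 SE, adjusted p = 0.957). Replicate 3 of each genotype was highest for Peg10, and the genotypes lay among each other for both genes. Per length, Sgce stood above Peg10 in every library, by 2.24 to 13.2 times in OgaVav-Cre and 2.63 to 8.83 times in wildtype, and the ratio overlapped between the genotypes (exact two-sided permutation p = 0.8). Further along chromosome 6 Ppp1r9a had 63.2, 80.3 and 35.8 CPM in OgaVav-Cre mice against 37.6, 84.7 and 62.5 CPM in wildtype mice (log2 fold change -0.04 ± 0.35 SE, adjusted p = 0.975). Gm9835, which overlaps its 5′ end from the opposite strand, was at 91.5, 82.1 and 102 CPM in OgaVav-Cre mice against 134, 114 and 116 CPM in wildtype mice. The last gene of the cluster, Asb4, had 5 to 13 reads per library (log2 fold change -0.31 ± 0.63 SE, adjusted p = 0.880).

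The receptor Igf2r, which clears IGF2, is expressed from the maternal copy and had 53.0, 41.4 and 36.7 CPM in OgaVav-Cre mice against 32.7, 37.1 and 35.3 CPM in wildtype mice. OgaVav-Cre replicates 1 and 2 lay above all wildtype libraries and replicate 3 above 2 of them (log2 fold change 0.32 ± 0.16 SE, adjusted p = 0.517). Airn, the noncoding RNA that silences Igf2r on the paternal copy, had 1.46, 1.42 and 1.17 CPM in OgaVav-Cre mice against 0.890, 2.28 and 0.973 CPM in wildtype mice at its longest locus (log2 fold change -0.03 ± 0.46 SE, adjusted p = 0.987). The table lists 6 loci with this symbol, all on the plus strand, and some lie inside Igf2r, on the opposite strand to it, so their reads can come from either gene. Summed over the 6, Airn reached 7.36, 4.27 and 4.82 CPM in OgaVav-Cre mice against 2.39, 3.42 and 4.15 CPM in wildtype mice, and its libraries did not overlap. The fitted log2 fold change of this sum was 0.72 ± 0.32 SE with an adjusted p of 0.485 in edgeR, so that the sign at the longest locus turned with the choice of locus while neither value passed the test.

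Gnas, at chr2:174109821-174172245, had 455, 443 and 507 CPM in OgaVav-Cre mice against 406, 398 and 409 CPM in wildtype mice or, on average, 468 ± 34.1 CPM in OgaVav-Cre and 404 ± 6.11 CPM in wildtype (SD, n = 3 each). The difference was small beside that of Peg3 and did not pass the test (log2 fold change 0.21 ± 0.12 SE, adjusted p = 0.553). A locus on the opposite strand inside Gnas, ENSMUSG00000090625, was at 358, 357 and 403 CPM in OgaVav-Cre mice against 322, 312 and 304 CPM in wildtype mice, and reads of the pair cannot be separated without strand. The Mest cluster of chromosome 6 held no gene that passed the test. Its paternally expressed Mest, a hydrolase of mesodermal tissue, had 3.37, 4.59 and 3.06 CPM in OgaVav-Cre mice against 3.84, 2.13 and 4.48 CPM in wildtype mice (log2 fold change 0.07 ± 0.35 SE, adjusted p = 0.952). The overlapping Copg2 was among the steadiest members, with 52.3, 57.3 and 49.1 CPM in OgaVav-Cre mice against 55.8, 51.6 and 51.6 CPM in wildtype mice (log2 fold change -0.00158 ± 0.11 SE, adjusted p = 0.997). H19, a noncoding RNA, and Igf2, the growth factor it shares control elements with, were both too low to be tested. H19 reads numbered 6, 8 and 10 in OgaVav-Cre mice against 7, 11 and 20 in wildtype mice, and Igf2 reads 1, 7 and 8 against 7, 31 and 13.

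Of the members outside these clusters, Plagl1, a zinc finger protein that regulates other imprinted genes, was counted at 3, 10 and 9 reads in OgaVav-Cre mice against 11, 10 and 28 in wildtype mice. Scaled to CPM its genotypes did not overlap (log2 fold change -1.35 ± 0.62 SE, adjusted p = 0.490), although OgaVav-Cre replicate 2 and wildtype replicate 2 had 10 reads each. Grb10, an adaptor that restrains insulin signalling, had 27.9, 35.2 and 17.3 CPM in OgaVav-Cre mice against 24.1, 36.4 and 32.1 CPM in wildtype mice (log2 fold change -0.21 ± 0.27 SE, adjusted p = 0.799). Impact had 40.2, 37.6 and 35.6 CPM in OgaVav-Cre mice against 34.3, 59.6 and 45.5 CPM in wildtype mice (log2 fold change -0.30 ± 0.20 SE, adjusted p = 0.599).

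The phosphatase Inpp5f had 27.4, 25.1 and 42.5 CPM in OgaVav-Cre mice against 23.9, 19.7 and 33.1 CPM in wildtype mice (log2 fold change 0.31 ± 0.26 SE, adjusted p = 0.679). Nnat, a small membrane protein gene inside the locus of Blcap, had 0.798, 0.673 and 1.90 CPM in OgaVav-Cre mice against 1.83, 2.33 and 1.31 CPM in wildtype mice (log2 fold change -0.69 ± 0.49 SE, adjusted p = 0.621). For these 4 genes, Grb10, Impact, Inpp5f and Nnat, the libraries of the genotypes overlapped. Nap1l5, inside Herc3, had 2 to 11 reads, Rasgrf1, an exchange factor for Ras, 0 to 9 reads, and Dcn, a matrix proteoglycan made by stromal cells, 0 to 26 reads per library. Dcn was highest in OgaVav-Cre replicate 3, at 26 reads, and the stromal sum given above was also higher in the OgaVav-Cre libraries. The part of stromal cells in these values was not tested.

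Within each genotype, several imprinted genes followed the library order of the LT-HSC markers, a pattern noticed after the values had been seen. The mean of log2(CPM + 0.5) over the 18 markers was 4.95 in replicate 2, 4.59 in replicate 1 and 3.82 in replicate 3 of OgaVav-Cre, and 5.14 in replicate 2, 4.66 in replicate 3 and 4.14 in replicate 1 of wildtype. Of the 26 members tested 7, or 26.9%, had this order in both genotypes, namely Sgce, Ppp1r9a, Asb4, Grb10, Ndn, Peg12 and Cdkn1c, where 6.38% of all loci tested had it. The share was 15.4% among the 26 other imprinted genes tested. It was 21.1% among the 19 stromal markers tested (Pdgfrb, Mmp2, Bgn and Emcn), and 72.2% among the LT-HSC markers themselves, which set the order. This is a description with no test, since genes of the same cells share their libraries. Asb4 had only 5 to 13 reads per library. Sgce, Ppp1r9a and Asb4 also lie in the same cluster, as do Ndn and Peg12, so that the 7 members are not independent. Ppp1r9a ran from 35.8 to 80.3 CPM across the OgaVav-Cre libraries and from 37.6 to 84.7 CPM across wildtype, wide ranges that nearly coincided. Cdkn1c and Peg12 had higher values in the 2 OgaVav-Cre libraries with the most LT-HSC marker RNA than in any wildtype library, and Ndn ran below wildtype in libraries of similar marker level. The part of stem cell content in the comparison of the genotypes was not tested.

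**Figure D5:**
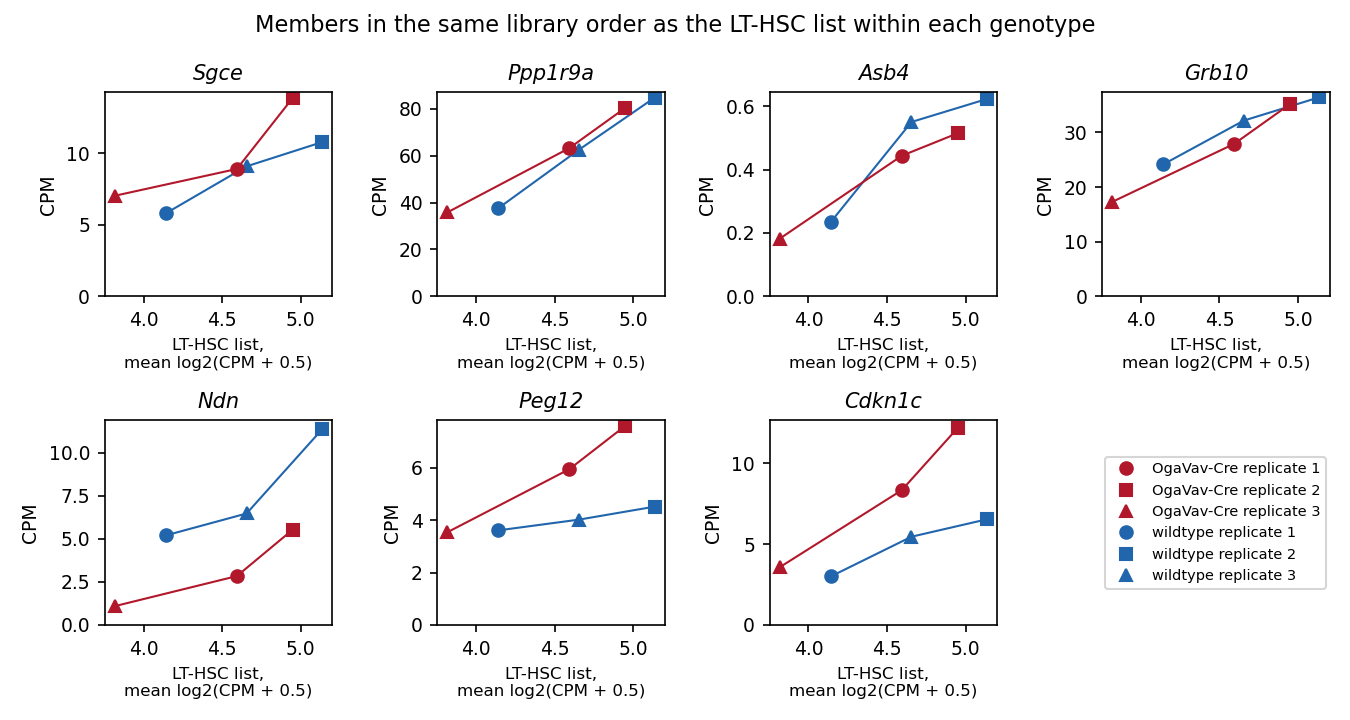
CPM of the 7 tested imprinted genes whose libraries had the same order as the LT-HSC marker list within both genotypes, against the list's mean log2(CPM + 0.5), with lines joining the libraries of a genotype (red OgaVav-Cre, blue wildtype). Ppp1r9a follows nearly the same line in both, while Ndn lies lower and Cdkn1c and Peg12 higher in OgaVav-Cre at the upper marker levels.

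OgaVav-Cre replicate 3, the library with the least LT-HSC and the most lineage marker RNA, moved the count of small p-values most when it was left out. Without it, 28 members could be tested and 7 of them, or 25.0%, had an unadjusted p below 0.05, against 14.3% of all loci in the same fit, and 0 were called. Higher were Dlk1 at a log2 fold change of 1.26 ± 0.44 SE, Cdkn1c at 1.04 ± 0.36 SE, Slc22a18 at 0.90 ± 0.30 SE, Peg12 at 0.75 ± 0.26 SE and Igf2r at 0.43 ± 0.16 SE, and lower were Nnat at -1.30 ± 0.47 SE and Peg3 at -3.12 ± 1.11 SE. Replicate 3 held the lowest OgaVav-Cre value of each of the 5 higher members and the highest of Nnat. Leaving it out thus widened their differences by construction, while wildtype replicate 1, the lowest of its genotype in LT-HSC markers, was kept. Peg3 again entered only through the wildtype libraries. The shares are therefore a description. The lowest adjusted p of a member in that fit was 0.285. Leaving out any other library gave 1 to 4 members at an unadjusted p below 0.05, and the shares of all loci in those fits are not given here.

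With no filter on low counts 37 members entered the edgeR fit and 5 of them, or 13.5%, were lower at an unadjusted p below 0.05, against 4.26% of all loci in that fit. That fit kept every locus with a read, 36514 in place of 22032, and many of those added had very few reads. With the filter 6.27% of all loci were lower, so that 4.26% is not a like background for the members. The 5 members were Peg3, Ndn, Mirg, Snrpn and Igf2. Peg3 had at most 22 reads in any library and the last 3 at most 31, and the lowest adjusted p among the members was 0.443. No member was higher at that level, and the share of all loci that were higher is not given here. A fitted fold change against libraries at 0 depends on the prior count and is not given for Mirg.

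Beyond the 38 members, 43 other known imprinted genes were found in the table and 26 of them tested, with 0 called, 3 genes or 11.5% at an unadjusted p below 0.05, 2 lower and 1 higher, against 10.6% of all loci, and a median log2 fold change of 0.09. The lowest p belonged to Gab1, a docking protein of receptor signalling, with 15.9, 14.8 and 9.52 CPM in OgaVav-Cre mice against 21.8, 24.5 and 21.3 CPM in wildtype mice, which did not overlap (log2 fold change -0.75 ± 0.21 SE, adjusted p = 0.412). Phactr2, a phosphatase and actin regulator, was at 63.1, 77.4 and 74.9 CPM against 87.3, 96.7 and 93.8 CPM (log2 fold change -0.37 ± 0.12 SE, adjusted p = 0.415). Sfmbt2, a polycomb protein, was at 5.68, 7.95 and 3.83 CPM against 2.62, 3.84 and 3.51 CPM, which overlapped through replicate 3 of OgaVav-Cre (log2 fold change 0.81 ± 0.33 SE, adjusted p = 0.453).

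Among 26 factors that set, keep or erase imprints, 22 were tested with 0 called, and 3 or 13.6% were lower and 0 higher at an unadjusted p below 0.05, against 6.27% and 4.38% of all loci. Tet2, an enzyme that oxidizes methylated cytosine, was at 49.4, 43.3 and 53.7 CPM in OgaVav-Cre mice against 61.4, 66.3 and 73.9 CPM in wildtype mice (log2 fold change -0.46 ± 0.13 SE, adjusted p = 0.412). Zfp445, a zinc finger protein that protects imprints, was at 121, 130 and 132 CPM against 161, 161 and 170 CPM (log2 fold change -0.36 ± 0.11 SE, adjusted p = 0.412). Arid4a, a chromatin protein known to act on the Prader-Willi imprint, was at 85.2, 76.3 and 92.2 CPM against 95.4, 117 and 120.4 CPM (log2 fold change -0.39 ± 0.14 SE, adjusted p = 0.425). All 3 had genotypes that did not overlap, 13.6% of the list against 9.97% of all loci.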

How the data were processed

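LSK cells of 3 OgaVav-Cre and 3 wildtype mice were measured by poly(A) RNA-Seq. The authors aligned single-end reads to mm9 and summarised them per locus with Genomatix, and the submitters' processing notes name CASAVA 1.8.2. The counter, its strand setting and the annotation's version are not given in the sources used here. The authors deposited raw counts per locus and library, and the authors' RPKM (per length and library depth) stands beside them in the deposited table. The table's columns of log2 fold changes and p-values from the authors' own comparison were not used, nor were 6 columns of normalised expression per library.

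Loci with enough reads (edgeR's filterByExpr, leaving 22032) were scaled by TMM and tested for genotype with edgeR 4.0.16 (quasi-likelihood F test, R 4.3.3, limma 3.58.1), with Benjamini-Hochberg adjustment over all loci tested. Calls were made at an adjusted p under 0.05 where its fold change also exceeded 1 on the log2 scale. CPM are counts per 1000000 reads at the TMM-scaled library size. The SE is the fold change divided by the square root of F. DESeq2 1.42.0 (Wald test, which the study's methods name), limma-voom, RPKM on a log2 scale with pseudocounts of 0.1 and 1, other scalings and filters, and fits without each library were alternatives. The edgeR, DESeq2 and limma-voom fits were tested on simulated data. Depth was 19318056 to 27064389 reads per library, and the floor of 3 reads was 0.109 to 0.156 CPM. Separate animals gave the libraries, so that p-values measure the spread between mice. Sequences came from the mm9 reference.

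The members and gene lists were chosen with earlier results of these data known. Every member is accounted for. Values in each library are given for members at 1 CPM or more on average or with an unadjusted p below 0.05, for Oga as the check of the genotype, and for the 3 genes with the smallest p of each further list.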

Additional observations from a re-analysis of the deposited data

How the results depend on the processing

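No member was called under any of the 16 alternatives run, and the lowest adjusted p of a member reported by value was 0.274 (Ndn, DESeq2). The count of other imprinted genes and of imprint maintenance factors called also stayed at 0 throughout. The count of all loci called was 21 with no filter on low counts, 4 with at least 10 reads in every library, 114 with DESeq2 and 4 on RPKM with a pseudocount of 1, in place of 7, and 3 to 9 with a library left out. The count of members at an unadjusted p below 0.05, which was 1, came to 2 with no TMM factor, DESeq2 or limma-voom, 5 with no filter, 0 with at least 10 reads in every library, and 1 to 7 with a library left out, the 7 without OgaVav-Cre replicate 3 and 4 without wildtype replicate 1. The members' median stayed between -0.31 and 0.04 with a library left out. The number whose genotypes did not overlap was 3, and 3 to 9 with a library left out, where fewer libraries overlap less easily. Among the alternatives, shares of all loci at an unadjusted p below 0.05 are given only without OgaVav-Cre replicate 3 and, for lower loci, with no filter. The other counts of members have no background here.

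The labels do not say whether the replicate numbers mark shared litters or days. The deviations of same-numbered libraries correlated at -0.08, 0.26 and 0.32. In both genotypes, replicates 2 and 3 correlated best with their own number. OgaVav-Cre replicate 1 correlated best with wildtype replicate 2, at 0.21, and wildtype replicate 1 with OgaVav-Cre replicate 3, at 0.09. Such correlations cannot decide whether the mice were paired, and the main fit did not use pairs. With the replicate block in edgeR 6 loci in all and 0 members were called, and 2 members had an unadjusted p below 0.05.

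Of the 24 members given by value, 20 kept the sign of their fold change under the other settings, and 13 did with a library left out. Signs turned for Airn with limma-voom (0.12), the replicate block (0.0805) and the sum of its loci (0.72), for Mest (-0.0584) and Phlda2 (-0.0595) with no TMM factor, and for Copg2 with DESeq2 size factors (0.0118), no filter (0.00344) and the DESeq2 test (0.0118). With a library left out the ranges were -0.26 to 0.54 for Airn, -0.68 to 0.33 for Rian, -0.18 to 0.30 for Mest, -0.0599 to 0.0518 for Copg2, -0.10 to 0.42 for Sgce, -0.78 to 0.56 for Peg10, -0.32 to 0.26 for Ppp1r9a, -0.45 to 0.0324 for Grb10, -0.77 to 0.0931 for Mkrn3, -0.33 to 0.30 for Kcnq1ot1 and -0.18 to 0.51 for Phlda2. Peg3 ran from -7.22 to -3.12 and Ndn from -1.97 to -0.87. On RPKM Peg3 was at -0.55 with a pseudocount of 0.1 and -0.07 with 1. Its mean of 0.00355 RPKM in OgaVav-Cre and 0.0526 in wildtype lay below both pseudocounts, which by arithmetic shrink such a fold change. The cause of the other changes of sign and size was not tested. Members under the floor cannot show a difference at this depth.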
